A study of Mus musculus with 12 samples.

Results

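The loss of hepatic RXRα in the absence of drug was examined in 6 of the 12 RNA-seq libraries of the series. The first group was made of 3 knockout control libraries from hepatocytes of male C57bl/6 mice with a hepatic Rxra knockout and no bexarotene. It was compared with 3 floxed control libraries from male C57bl/6 mice that carry the floxed Rxra allele, also without bexarotene. The other 6 libraries came from knockout and floxed mice given the RXR agonist bexarotene at 100 mg/kg once a day for 5 days, and they are used here for the shared estimate of spread and for the last comparison. Members were taken by the column names of the deposited table, which number the knockout controls 1, 2 and 5 and the floxed controls 1, 3 and 4. Values of the libraries are given in that order throughout. The sources used here give neither the Cre driver of the knockout, nor the age of the mice, nor the vehicle of the control mice. The labels do not say that libraries of a group came from separate animals, so a p-value here reflects the scatter among these libraries alone, part or all of which may be technical.

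RXRα is a nuclear receptor that binds DNA mostly as a dimer with another nuclear receptor. Its partners in hepatocytes include PPARα, the sensor of fatty acids, LXR, the sensor of oxysterols, FXR, the sensor of bile acids, CAR and PXR, the sensors of drugs and other foreign compounds, and the receptors that bind thyroid hormone or retinoic acid. Target genes of these partners control fat oxidation, lipid synthesis, bile acid handling and detoxification in the liver.

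The libraries did not scatter evenly within the groups. Floxed controls 1 and 3 differed by a log2 SD of only 0.048 beyond counting noise, under the limit of 0.1, and were averaged and counted as 1 sample, so the floxed controls enter the tests as n = 2 and the knockout controls as n = 3. The pairs of knockout controls differed by 0.250 to 0.483. Clock genes set 2 knockout controls apart: the mean log2 level of evening-phase genes such as Dbp and Per2 minus that of morning-phase genes such as Arntl and Npas2 was 0.67 and 0.64 in knockout controls 1 and 2 and -2.23 in knockout control 5, against -1.11, -1.13 and -1.73 in the floxed controls. Hepatocyte mRNAs were abundant in all 6 libraries: Alb, which encodes albumin, stood at 33732, 32732 and 34341 TPM (transcript abundance scaled for length and for the library total) in knockout controls and at 38361, 39186 and 46053 TPM in floxed controls. Alb was lower in every knockout library, but most hepatocyte genes went the other way. Of 11 tested hepatocyte secreted and identity genes, 9 were higher and 2 lower in sign. Ttr, Apoa1 and Apoh were called higher and 0 lower, against 1.83% and 1.92% of all genes tested. Macrophage markers were lower in sign in 14 of 14 tested members with 0 called, with summed levels of 24.9, 28.4 and 52.2 TPM in knockout controls against 42.8, 48.6 and 137 TPM in floxed controls. Lymphocyte markers summed to 148, 138 and 68.4 TPM in knockout controls against 151, 148 and 211 TPM in floxed controls, and neutrophil markers to 12.7, 12.4 and 38.3 TPM against 19.2, 16.5 and 56.3 TPM. Most of the lymphocyte sum was Igkc, an immunoglobulin gene. Endothelial markers summed to 29.4, 27.5 and 20.1 TPM against 18.6, 18.7 and 30.3 TPM, with 4 higher and 6 lower in sign among 10 tested. Of 11 stellate cell markers 2 were tested, both higher in sign, with sums of 5.50, 5.34 and 3.54 TPM against 1.40, 1.12 and 4.09 TPM. Of 10 bile duct markers 3 were tested, with 1 higher and 2 lower in sign, and they summed to 3759, 3209 and 2612 TPM in knockout controls against 2315, 2365 and 2837 TPM in floxed controls. Nearly all of that sum was Ambp, which hepatocytes also express. The defining markers Krt7 and Cftr were listed at 0 in all 6 libraries. Spp1, osteopontin, fell, at 0.310, 0.640 and 0.350 TPM in knockout controls against 1.85, 1.69 and 4.04 TPM in floxed controls (log2 fold change -1.39 ± 0.31, adjusted p = 0.0486), a call lost without floxed control 1 or 4 or any knockout control (adjusted p up to 0.353). The part of these other cells and of the clock difference in these results was not tested, and in bulk samples fewer cells of a type and less RNA per cell cannot be told apart.

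**Figure D1:**
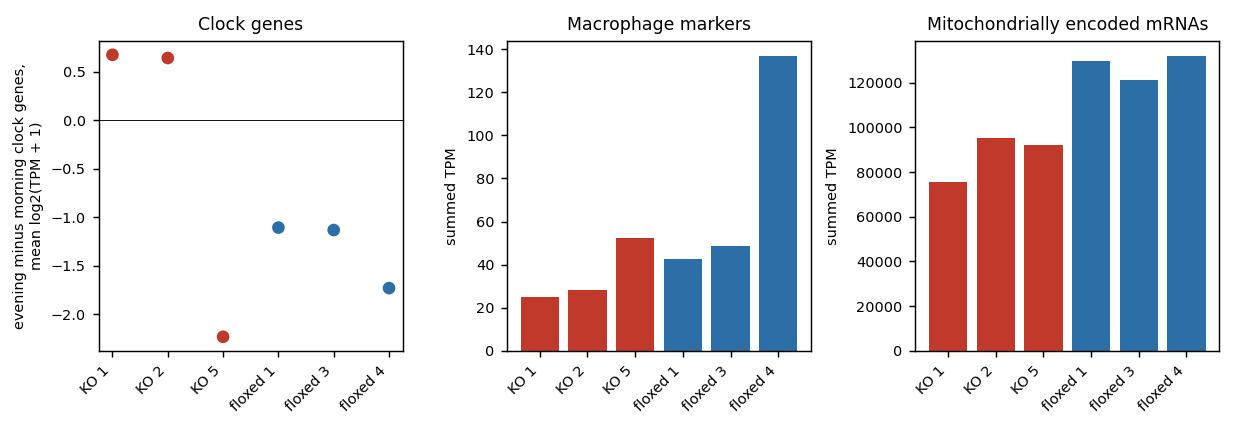
Clock genes (left, mean log2(TPM + 1) of evening-phase minus morning-phase genes), macrophage markers (middle, summed TPM) and the 13 mitochondrially encoded mRNAs (right, summed TPM) in each of the 3 knockout controls (red, KO) and 3 floxed controls (blue). Knockout controls 1 and 2 sit above 0 on the clock axis and the other 4 libraries below it, floxed control 4 has the highest macrophage sum, and the mitochondrial sums of the groups do not overlap.

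Rxra itself was measured at 31.3, 33.1 and 26.9 TPM in knockout controls, against 79.5, 79.9 and 86.05 TPM in floxed controls. The 3 knockout libraries lie below all floxed libraries, with means of 30.4 ± 3.18 TPM (SD, n = 3) and 82.9 ± 4.47 TPM (SD, n = 2). The log2 fold change of knockout over floxed was -1.42 ± 0.13 (SE), with an adjusted p of 8.87e-04 from limma after Benjamini-Hochberg correction over all genes tested, and the call held when any 1 control library was left out (adjusted p up to 0.0187). TPM counts the whole gene, so this value does not show how much of the deleted part remained. The other isotypes did not pass the test. Rxrb had 13.9, 9.81 and 8.19 TPM in knockout controls and 10.85, 11.9 and 9.91 TPM in floxed controls (adjusted p = 0.968), and Rxrg had 1.06, 0.88 and 1.21 TPM in knockout controls and 1.39, 1.00 and 1.83 TPM in floxed controls (adjusted p = 0.497).

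Of 11018 genes tested, 414 (3.76%) were called at an adjusted p under 0.05. They comprised 202 genes that rose in the knockout controls (1.83%) and 212 that fell (1.92%), and 1875 genes had an unadjusted p under 0.05. Changes of more than 1 on the log2 scale were seen for 113 of the genes that rose and 148 of those that fell. The median log2 fold change of all genes tested was 0.00. The knockout and floxed control libraries did not overlap in any of the 414, so leaving out a control library could not change a sign. Leaving out 1 control library at a time kept the call of 88 of the 414, 36 higher and 52 lower. Without knockout control 2 the count of calls was 220, and without knockout control 5 it was 761. Without floxed control 1 or 3 the floxed group stayed at n = 2, with 434 and 420 calls. Without floxed control 4 it was the lone average of floxed controls 1 and 3, with no spread of its own, and fewer genes were called. For a call lost in that fit, the values of floxed control 4 and the smaller group cannot be told apart. Without knockout controls 1 and 2, an alternative added after seeing the data, 462 genes were called, of which 238 were among the 414. For genes that lose the call, the highest adjusted p over the 6 fits that each left out 1 control library is given beside the gene.

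The largest falls were in genes for major urinary proteins, drug and fatty acid hydroxylases and lipid enzymes. Mup17, which encodes a pheromone-binding protein secreted by the liver, had 6.74, 12.4 and 12.5 TPM in knockout controls against 3899, 4036 and 1697 TPM in floxed controls (log2 fold change -7.86 ± 0.55, adjusted p = 2.7e-04). Mup19 (log2 fold change -6.50 ± 0.55) and Mup15 (-4.81 ± 0.50) fell with it. Mup21 did the opposite, at 1229, 2331 and 1502 TPM in knockout controls against 286, 269.9 and 268 TPM in floxed controls (log2 fold change 2.57 ± 0.26, adjusted p = 0.00189). Mup genes are a cluster of nearly identical copies, so the split of reads among them by the authors' quantification is uncertain. Rarres1, a gene named for its induction by retinoids, had 0.870, 0.970 and 2.60 TPM in knockout controls against 52.4, 52.8 and 36.5 TPM in floxed controls (log2 fold change -4.24 ± 0.30). Fitm1, a protein of the endoplasmic reticulum that promotes lipid droplet formation, was listed at 0, 0 and 0.150 TPM in knockout controls against 19.2, 22.4 and 12.3 TPM in floxed controls (adjusted p = 6.76e-05). In each of these genes the groups were far apart, and, as in every called gene, they did not overlap.

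The largest rises were in genes of lower level. Nat8f7, of a family of N-acetyltransferases, had 16.1, 21.4 and 19.8 TPM in knockout controls against 0.280, 0.110 and 0.580 TPM in floxed controls (log2 fold change 3.86 ± 0.20, adjusted p = 4.62e-05). Cyp2d41-ps, a P450 pseudogene whose reads may be shared with its parent family, had 20.3, 18.2 and 32.0 TPM in knockout controls against 0.680, 1.00 and 1.35 TPM in floxed controls (log2 fold change 3.52 ± 0.26). Both genes stood in every knockout library well above every floxed library, and no called gene had groups that overlapped. Tff3, a secreted trefoil peptide, had 108, 86.4 and 179 TPM in knockout controls against 8.41, 7.18 and 14.4 TPM in floxed controls (log2 fold change 3.36 ± 0.34). Asns, which makes asparagine and is a target of the amino acid response factor ATF4, had 35.1, 30.7 and 56.0 TPM in knockout controls against 3.21, 3.52 and 3.85 TPM in floxed controls (log2 fold change 3.13 ± 0.35). It was the 1 gene called among the 14 tested members of the ATF4 list, against 3.76% of all genes tested. Pcp4l1 (log2 fold change 3.08 ± 0.29) and Aqp4, a water channel (3.02 ± 0.29), rose as well. Cyp17a1, a steroid hydroxylase, and Serpine2, a protease inhibitor, rose with the highest value in knockout control 5: Cyp17a1 had 15.4, 12.4 and 87.3 TPM in knockout controls against 1.75, 1.56 and 1.87 TPM in floxed controls. The call of Cyp17a1 was lost without floxed control 4 (adjusted p = 0.222), that of Serpine2 without floxed control 4 or knockout control 2 (up to 0.200), and that of the microtubule gene Tuba8 (log2 fold change 2.87 ± 0.35) without floxed control 4 (0.0532).

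**Figure D2:**
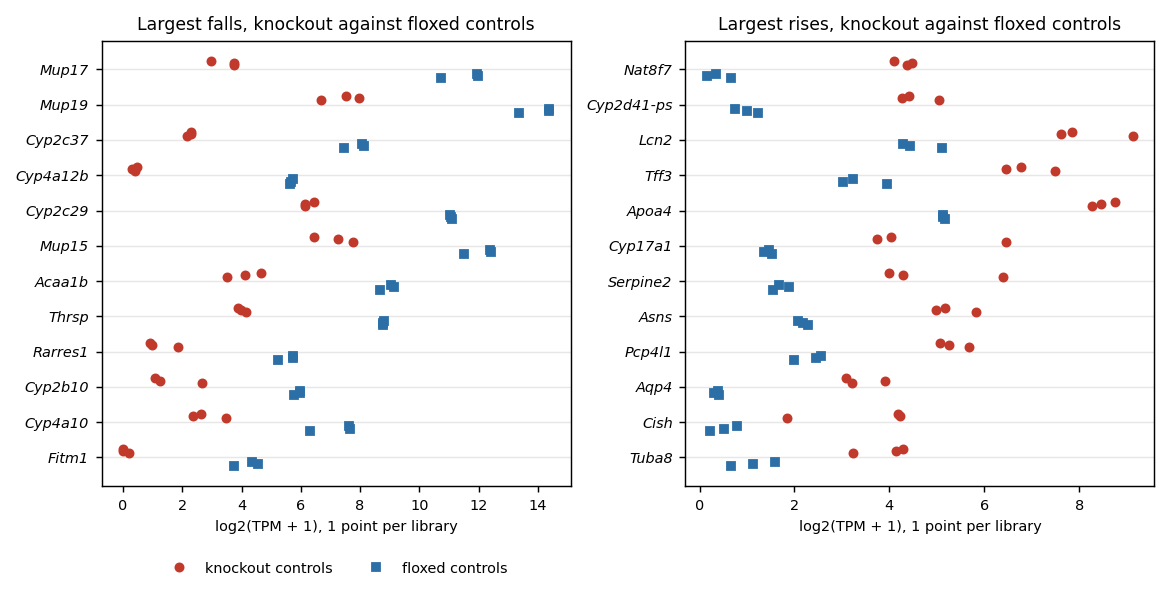
Levels on the log2(TPM + 1) axis in each of 3 knockout controls (red circles) and 3 floxed controls (blue squares) for the 12 named genes with the largest falls (left) and the 12 with the largest rises (right). Each point is 1 library. The groups do not overlap for any of these 24 genes, by the rule that chose them, and the knockout controls of Cyp17a1, Serpine2 and Cish are spread widest, each with 1 library apart from the other 2.

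Targets of CAR and PXR held the most falls of the 57 gene lists. Of 34 tested members, 13 fell and 1 rose, against 1.92% and 1.83% of all genes tested. The median log2 fold change of the list was only -0.21, since 14 members had a positive sign. The P450s of the Cyp2c family led. Cyp2c29, an epoxygenase of arachidonic acid and a hydroxylase of drugs, had 87.1, 69.5 and 69.0 TPM in knockout controls against 2079, 2148 and 2204 TPM in floxed controls (log2 fold change -4.83 ± 0.13, adjusted p = 1.16e-06). Cyp2c37 had 3.88, 3.89 and 3.44 TPM in knockout controls against 267, 276 and 173 TPM in floxed controls (log2 fold change -5.53 ± 0.18). As in every gene that fell, each knockout library was below each floxed one for both, and floxed control 4 was the lowest floxed library for Cyp2c37. Cyp2c50 fell (log2 fold change -2.63 ± 0.13), as did Cyp2c54 (-2.01 ± 0.21) and Cyp2c38 (-2.12 ± 0.24). These Cyp2c genes are close paralogs, so the authors' quantification may have moved reads among them.

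Cyp2b10, the classical CAR target, had 1.13, 1.37 and 5.34 TPM in knockout controls against 61.1, 61.2 and 53.02 TPM in floxed controls (log2 fold change -4.19 ± 0.43, adjusted p = 0.00189). Cyp3a11, the classical PXR target and the main drug-oxidizing P450 of mouse liver, had 551, 743 and 378 TPM in knockout controls against 2302, 2280.4 and 1924 TPM in floxed controls (log2 fold change -1.97 ± 0.26, adjusted p = 0.00591). Both genes, as every gene that fell, were lower in every knockout library than in any floxed one. Abcc3, the basolateral exporter of bile acid and drug conjugates, had 16.2, 10.3 and 7.11 TPM in knockout controls against 106, 98.3 and 100.0 TPM in floxed controls (log2 fold change -3.13 ± 0.29). Cyp2a5, a coumarin hydroxylase, fell (log2 fold change -2.54 ± 0.31). The split of reads between it and its close paralog Cyp2a4, described at the end, is uncertain. Ugt1a1, which conjugates bilirubin, fell too, at 191, 182 and 174 TPM in knockout controls against 372, 398 and 350.5 TPM in floxed controls (-1.01 ± 0.11). Gstt1, a glutathione transferase, was the member that rose, at 563, 456 and 455 TPM in knockout controls against 232, 242 and 233 TPM in floxed controls (log2 fold change 1.05 ± 0.14). Of the 13 falls, 10 held when any 1 control library was left out and 11 without knockout controls 1 and 2. Those lost were Cyp3a11 (adjusted p = 0.0528 without floxed control 4), Cyp2c55 and Aldh1a1 (up to 0.144 and 0.223, without floxed control 4 or knockout control 1 or 2), and the rise of Gstt1 was lost without floxed control 4 (0.0663).

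Promoters of 2 of these genes are shown because RXR partners are known to bind repeats of AGGTCA, and they held such repeats. The search covered RefSeq promoters (GRCm38.p6, 250 bases before to 50 after the start site), on both strands, for 2 copies of AGGTCA in the same direction with 1 or 4 bases between them and at most 2 differences in the 12 letters. It was chosen after the expression values were seen. With a spacer of 1, 10 of 146 matched promoters of genes that fell held a match (6.85%), against 12 of 138 for genes that rose (8.70%), 4.12% for all genes tested and 4.40% of all 27025 promoters. With a spacer of 4, the shares were 4.79% for genes that fell, 2.90% for genes that rose, 2.75% for all genes tested and 3.47% of all promoters. A match is a description of these letters and not a shown binding site. The capitals mark the match, 1 difference in a spacer of 4 at positions -172 to -157 for Cyp3a11 (chr5:145879805-145880104, minus strand) and 2 differences in a spacer of 1 at -154 to -142 for Cyp2c29 (chr19:39286835-39287134, plus strand), with 0 at the start site.
Cyp3a11: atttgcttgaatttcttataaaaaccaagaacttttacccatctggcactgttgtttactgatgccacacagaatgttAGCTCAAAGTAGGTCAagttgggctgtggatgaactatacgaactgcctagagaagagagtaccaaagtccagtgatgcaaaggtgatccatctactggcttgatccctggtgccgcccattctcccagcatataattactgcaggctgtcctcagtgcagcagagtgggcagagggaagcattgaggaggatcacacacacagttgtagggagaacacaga
Cyp2c29: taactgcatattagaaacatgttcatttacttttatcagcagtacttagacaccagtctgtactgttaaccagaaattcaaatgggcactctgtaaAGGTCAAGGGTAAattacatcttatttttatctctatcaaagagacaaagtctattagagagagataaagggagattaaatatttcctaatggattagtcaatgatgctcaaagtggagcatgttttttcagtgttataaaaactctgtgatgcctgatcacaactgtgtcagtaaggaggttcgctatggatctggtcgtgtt

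Other detoxification genes moved in both directions. Among carboxylesterases and aldo-keto reductases, 6 of 23 tested members fell and 0 rose, against 1.92% and 1.83% of all genes tested. Ces2c had 5.23, 4.48 and 3.35 TPM in knockout controls against 84.0, 89.0 and 54.8 TPM in floxed controls (log2 fold change -3.72 ± 0.22, adjusted p = 8.08e-05), and Ces1g, an esterase that hydrolyses lipids and drugs, had 27.3, 22.1 and 19.1 TPM against 168, 182 and 175 TPM (-2.90 ± 0.16). Ces1e (log2 fold change -1.29 ± 0.19), Ces1d (-0.86 ± 0.17), Ces2e (-1.24 ± 0.24) and Akr1b3 (-1.18 ± 0.20) fell too. The last 4 lost the call without floxed control 4, Ces1d also without knockout control 1, and Ces2e and Akr1b3 also without knockout control 2 (adjusted p up to 0.212). Among other P450s, 4 of 18 rose and 2 fell, against the same shares of 1.83% and 1.92%. Cyp2d40 rose, at 396, 331 and 303 TPM in knockout controls against 94.9, 97.8 and 103 TPM in floxed controls (log2 fold change 1.76 ± 0.14), while Cyp2c69 (-3.35 ± 0.36) and Cyp2c40 (-2.88 ± 0.36) fell, and these 3 calls held when any 1 control library was left out. The calls of Cyp2d26 (0.87 ± 0.17) and Cyp2c67 (0.74 ± 0.16) were lost without floxed control 4 or knockout control 2, and that of Cyp17a1 without floxed control 4 (adjusted p up to 0.308). Among glucuronosyl- and sulfotransferases, 1 of 25 rose and 2 fell, against 1.83% and 1.92% of all genes tested. Ugt3a2 rose (log2 fold change 0.89 ± 0.11) and Ugt2b1 fell (-1.31 ± 0.22), both calls being lost without floxed control 4 (adjusted p up to 0.125).

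PPARα targets fell unevenly, with large falls in a few genes and small ones, or none, in others. The omega-oxidation list, enzymes that oxidize the far end of fatty acids, had 4 of 10 tested members that fell and 0 that rose. Of all genes tested, 1.92% fell and 1.83% rose. Cyp4a10 had 5.20, 4.10 and 10.02 TPM in knockout controls against 194, 202 and 78.2 TPM in floxed controls (log2 fold change -4.16 ± 0.42, adjusted p = 0.00189), and Cyp4a14 had 0.360, 0.390 and 1.63 TPM against 29.0, 28.4 and 8.78 TPM (-3.32 ± 0.48). Floxed control 4 was the lowest floxed library for both genes and, as in every gene that fell, still above the knockout libraries. Aldh3a2, the fatty aldehyde dehydrogenase, had 9.91, 11.8 and 10.3 TPM in knockout controls against 89.2, 92.3 and 68.7 TPM in floxed controls (log2 fold change -2.78 ± 0.15). Cyp4a12b had 0.390, 0.230 and 0.310 TPM in knockout controls against 51.9, 49.6 and 48.3 TPM in floxed controls (log2 fold change -5.27 ± 0.15). Its close paralog Cyp4a12a had 427, 323 and 95.6 TPM in knockout controls and 252, 257 and 218 TPM in floxed controls (log2 fold change 0.01, adjusted p = 0.996), so the split of reads between the pair bears on both values. The 4 falls held when any 1 control library was left out.

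Of 18 tested genes of peroxisomal fatty acid oxidation, 3 fell and 0 rose, against 1.92% and 1.83% of all genes tested. The list had a median log2 fold change of -0.44 and 15 negative signs. Acaa1b, a peroxisomal thiolase, had 24.5, 16.3 and 10.4 TPM in knockout controls against 532, 564 and 409.6 TPM in floxed controls (log2 fold change -4.79 ± 0.29, adjusted p = 1.17e-04). Decr2, a reductase for unsaturated fatty acids, had 14.2, 15.5 and 14.0 TPM in knockout controls against 89.1, 89.6 and 62.1 TPM in floxed controls (-2.28 ± 0.16). Ehhadh, the bifunctional enzyme of the same pathway, had 92.4, 98.8 and 89.9 TPM in knockout controls and 98.9, 101 and 89.6 TPM in floxed controls, groups that overlap (adjusted p = 0.971). In mitochondrial oxidation 1 of 18 tested genes fell, Eci1, an isomerase for unsaturated fatty acids, at 47.6, 45.4 and 42.4 TPM in knockout controls against 86.5, 88.4 and 81.4 TPM in floxed controls (log2 fold change -0.89 ± 0.11; adjusted p = 0.0532 without floxed control 4). Of these 18 mitochondrial genes, 15 had a negative sign, and the median log2 fold change was -0.26. Knockout libraries were all below the floxed ones in 9 of them and all above in 0. None of the 7 tested genes of ketone metabolism was called, with 3 all below and 0 all above. Of all genes tested, 11.1% were all below and 14.2% all above.

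Fatty acid uptake genes held 2 falls among 15 tested, against 1.92% of all genes tested. Fabp1, the main fatty acid binding protein of hepatocytes, had 2825, 3309 and 1789 TPM in knockout controls against 6963, 7181 and 6489 TPM in floxed controls (log2 fold change -1.41 ± 0.24, adjusted p = 0.0160), and its call was lost without floxed control 4 (0.116). Cd36, a fatty acid transporter of low level here, had 0.370, 0.650 and 0.690 TPM in knockout controls against 4.39, 4.45 and 3.91 TPM in floxed controls (-1.72 ± 0.38), a call lost without floxed control 4 or any knockout control (adjusted p up to 0.252). Vnn1, a pantetheinase that PPARα agonists induce, had 0.490, 0.770 and 0.550 TPM in knockout controls against 7.33, 8.88 and 5.81 TPM in floxed controls (-2.30 ± 0.18) and was the 1 gene called among 14 other PPARα targets. Ppara itself was not called, at 49.2, 44.97 and 28.6 TPM in knockout controls and 26.5, 28.3 and 24.8 TPM in floxed controls (log2 fold change 0.59 ± 0.25, adjusted p = 0.277). The Fabp1 promoter is shown because it held a repeat with 1 difference and a spacer of 1, the spacing known for PPAR dimers, at positions -67 to -55 (chr6:71199629-71199928, GRCm38.p6, plus strand, match on the other strand in capitals).
Fabp1: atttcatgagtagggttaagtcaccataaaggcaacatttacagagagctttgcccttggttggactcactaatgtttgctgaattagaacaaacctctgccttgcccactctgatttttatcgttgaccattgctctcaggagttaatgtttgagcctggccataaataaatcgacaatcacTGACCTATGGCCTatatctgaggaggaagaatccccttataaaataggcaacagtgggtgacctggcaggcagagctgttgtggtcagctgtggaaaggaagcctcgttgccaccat

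**Figure D3:**
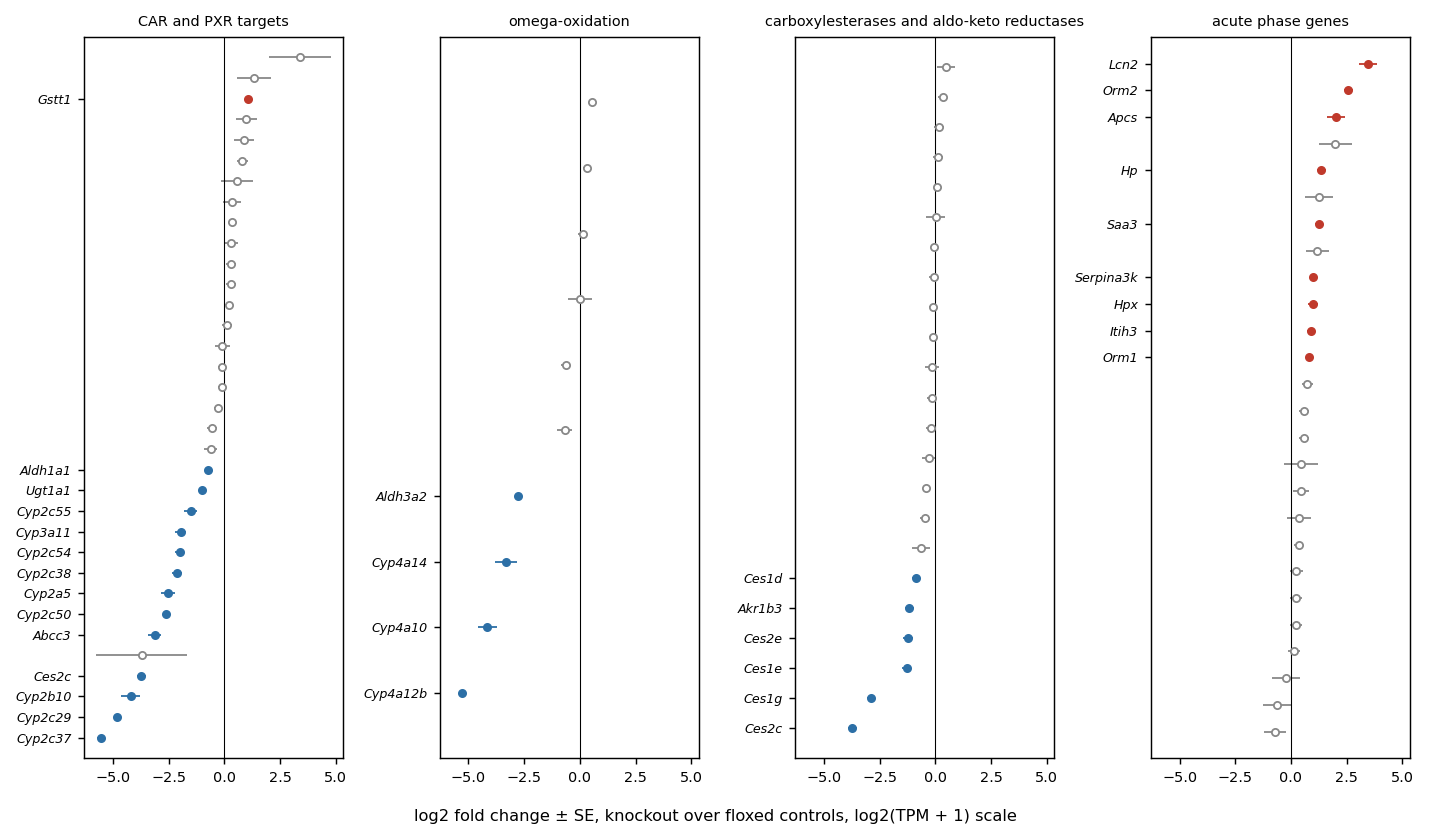
Log2 fold change of knockout over floxed controls ± SE on the log2(TPM + 1) scale for the tested members of 4 gene lists, with 34, 10, 23 and 26 genes from left to right. Filled points are called (red higher, blue lower in knockout controls) and carry the gene name, and open grey points are not called. The CAR and PXR list spans both directions with 13 falls, the omega-oxidation and esterase lists hold 4 and 6 falls and no called rise, and the acute phase list holds 9 rises and no called fall.

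Among 14 tested thyroid hormone responsive genes, 4 fell and 1 rose, against 1.92% and 1.83% of all genes tested. Thrsp, a regulator of lipogenesis that thyroid hormone and carbohydrate induce, had 13.9, 15.0 and 16.6 TPM in knockout controls against 442, 440.0 and 433 TPM in floxed controls (log2 fold change -4.77 ± 0.11, adjusted p = 6.75e-07). Its SE was the smallest among the 24 genes in the plot of the largest changes. Dio1, the deiodinase that activates thyroid hormone, had 8.45, 8.08 and 3.77 TPM in knockout controls against 111, 116 and 80.9 TPM in floxed controls (log2 fold change -3.70 ± 0.52). Me1, the malic enzyme that supplies NADPH for fat synthesis, had 15.5, 16.2 and 6.55 TPM in knockout controls against 61.0, 56.9 and 66.2 TPM in floxed controls (-2.30 ± 0.33). Knockout control 5 was the lowest for both, and both calls were lost without floxed control 4 (adjusted p = 0.0624 for Dio1 and 0.0917 for Me1). Cyp7b1, the oxysterol hydroxylase, was the member that rose, at 229, 237 and 369.6 TPM in knockout controls against 119.7, 121 and 124 TPM in floxed controls (log2 fold change 1.15 ± 0.25, a call lost without floxed control 4 or knockout control 2, adjusted p up to 0.255).

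The lipogenesis list, which shares Thrsp and Me1 with the previous one, had 4 of 21 tested members that fell and 0 that rose. Of all genes tested, 1.92% fell and 1.83% rose. Scd1, the stearoyl-CoA desaturase, had 259, 241 and 489 TPM in knockout controls against 917, 935 and 1072 TPM in floxed controls (log2 fold change -1.67 ± 0.35), and Elovl5, an elongase of polyunsaturated fatty acids, had 27.7, 27.4 and 58.0 TPM against 108, 111 and 146 TPM (-1.81 ± 0.40). Knockout control 5 lay nearest to the floxed controls in both, and both calls were lost without floxed control 4, knockout control 1 or knockout control 2 (adjusted p up to 0.326). Fasn, the fatty acid synthase, was not called, at 66.5, 53.7 and 42.0 TPM in knockout controls and 47.0, 47.8 and 77.8 TPM in floxed controls (adjusted p = 0.853). Srebf1, the factor that drives lipogenic genes, missed the threshold at 24.8, 26.3 and 12.5 TPM in knockout controls and 46.0, 47.1 and 62.3 TPM in floxed controls (log2 fold change -1.37 ± 0.31, adjusted p = 0.0523). Triglyceride and lipid droplet genes had 3 falls among 19 tested. Plin5, a droplet coat protein of oxidative tissues, had 22.0, 17.4 and 28.7 TPM in knockout controls against 59.0, 61.4 and 47.4 TPM in floxed controls (-1.23 ± 0.24). Mogat1, an acyltransferase, was listed at 0 in all knockout controls and at 0.880, 0.650 and 1.31 TPM in floxed controls. Pparg, a droplet-promoting receptor of low level in liver, had 0.860, 1.00 and 0.140 TPM in knockout controls against 3.3, 3.17 and 2.91 TPM in floxed controls (-1.33 ± 0.29). The calls of Plin5, Mogat1 and Pparg were lost without floxed control 4, knockout control 1 or knockout control 2 (adjusted p up to 0.245).

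LXR targets, 12 tested, held 2 falls and 1 rise, against 1.92% and 1.83% of all genes tested. Lpl, the lipoprotein lipase, had 0.05, 0.08 and 0.13 TPM in knockout controls against 4.96, 4.16 and 5.37 TPM in floxed controls (log2 fold change -2.45 ± 0.19, adjusted p = 3.99e-04). Scd1 was the other fall. Abcg8, which exports sterols into bile, rose, at 30.0, 24.1 and 25.0 TPM in knockout controls against 15.6, 16.4 and 14.0 TPM in floxed controls (0.77 ± 0.14; adjusted p = 0.207 without floxed control 4). Of 26 tested apolipoproteins and lipoprotein genes, 4 rose and 2 fell, against the same shares of 1.83% and 1.92%. Apoa4, an apolipoprotein of triglyceride-rich particles and HDL, had 431, 352 and 308 TPM in knockout controls against 33.9, 34.3 and 34.9 TPM in floxed controls (log2 fold change 3.35 ± 0.34, adjusted p = 0.00189). Its neighbours in the same gene cluster rose by less. Apoa1, the main protein of HDL, had 17804, 13095 and 13216 TPM in knockout controls against 7552, 7840.0 and 7646 TPM in floxed controls (0.92 ± 0.18), and Apoc3, an inhibitor of lipoprotein lipase, had 8446, 6514 and 6501 TPM against 4049, 4139.5 and 3765 TPM (0.85 ± 0.15). Lipg, the endothelial lipase, fell (log2 fold change -1.49 ± 0.24). The calls of Apoa1, Apoc3 and Apoh (0.54 ± 0.11) were lost without floxed control 4, and those of Apoa1 and Apoh also without knockout control 2 (adjusted p up to 0.234).

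Cholesterol synthesis genes shifted upward together in sign, with fewer calls. Of 24 tested members, 20 had a positive log2 fold change, 13 had knockout libraries all above the floxed ones (14.2% of all genes tested did) and 5 rose at the threshold. The median log2 fold change of the list was 0.59. Of all genes tested, 1.83% rose at the threshold. Sqle, the squalene epoxidase, had 50.5, 59.6 and 74.5 TPM in knockout controls against 12.4, 11.6 and 24.1 TPM in floxed controls (1.77 ± 0.36), and Msmo1, a demethylating oxidase of the later pathway, had 154, 152 and 209 TPM against 53.8, 58.5 and 72.1 TPM (1.40 ± 0.26). Knockout control 5 was the highest knockout library for both. Nsdhl, a dehydrogenase of the later pathway, rose too (log2 fold change 0.92 ± 0.18). The calls of Msmo1 and Sqle were lost without floxed control 4 or knockout control 2, that of Sqle also without knockout control 5, and that of Nsdhl without knockout control 1 or 2 (highest adjusted p 0.104). Of the 5 rises, 1 was kept without floxed control 4 and 2 without knockout controls 1 and 2. Against floxed control 4 alone, 16 members had a positive sign and the median was 0.31.

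Bile acid genes moved in both directions. Knockout libraries were all above the floxed ones in 2 of 15 synthesis genes and all below in 5. Among 16 transporters and FXR targets they were all above in 4 and all below in 5. Of all genes tested, 14.2% were all above and 11.1% all below, and 1.83% were called higher and 1.92% lower. In the synthesis list 2 of 15 tested members rose, Cyp7b1 and Csad, which makes taurine for conjugation, at 200.4, 169.9 and 163 TPM in knockout controls against 65.3, 65.6 and 106 TPM in floxed controls (log2 fold change 1.08 ± 0.22; adjusted p up to 0.0909 without knockout control 1 or 2). Cyp7a1, the rate-limiting enzyme of bile acid synthesis, had 20.3, 55.2 and 17.9 TPM in knockout controls and 34.0, 34.5 and 15.8 TPM in floxed controls, groups that overlap (adjusted p = 0.914). Cyp8b1, which makes cholic acid, had 362, 268 and 291 TPM in knockout controls and 259, 283 and 298 TPM in floxed controls (adjusted p = 0.918). Of 16 tested transporters and FXR targets, 2 rose and 2 fell, Abcc3 being 1 of the falls. Nr1h4, which encodes FXR, rose, at 76.4, 87.8 and 58.0 TPM in knockout controls against 37.8, 38.9 and 35.5 TPM in floxed controls (log2 fold change 0.96 ± 0.19). Fetub, a secreted protease inhibitor, had 1417, 1104 and 864 TPM in knockout controls against 525, 551 and 533 TPM in floxed controls (1.05 ± 0.20), and Abcb4, the phospholipid exporter of the canaliculus, had 22.7, 23.1 and 25.3 TPM against 45.6, 47.9 and 38.8 TPM (-0.82 ± 0.14). The FXR targets Nr0b2, which encodes the repressor SHP, and Abcb11, the bile salt export pump, were lower in every knockout library without passing the test: Nr0b2 had 8.77, 9.49 and 18.2 TPM in knockout controls and 20.3, 20.7 and 31.6 TPM in floxed controls (adjusted p = 0.152), and Abcb11 had 66.0, 68.9 and 96.6 TPM in knockout controls and 120.4, 125 and 163 TPM in floxed controls (0.0686). The calls of Nr1h4, Fetub and Abcb4 were lost without floxed control 4 or knockout control 2, and that of Nr1h4 also without knockout control 1 (adjusted p up to 0.222).

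Of 12 tested partner receptors, Nr1h4 rose and Nr1i2 and Pparg fell, while 1.83% and 1.92% of all genes tested did so. Nr1i2, which encodes PXR, had 21.4, 19.7 and 20.4 TPM in knockout controls against 34.8, 34.5 and 34.0 TPM in floxed controls (log2 fold change -0.72 ± 0.11, adjusted p = 0.0104), and its call was lost without floxed control 4 (0.0990). Nr1i3, which encodes CAR, had 68.5, 72.0 and 109 TPM in knockout controls and 67.6, 74.6 and 55.2 TPM in floxed controls (adjusted p = 0.431). Nr1h3, which encodes LXRα, had 74.4, 61.3 and 54.0 TPM in knockout controls and 57.3, 53.9 and 52.2 TPM in floxed controls (0.541). Both overlapped between the groups. None of 12 tested coregulators and none of 14 tested hepatocyte identity factors was called.

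Retinoid enzymes, 22 tested, held 2 rises and 2 falls, against 1.83% and 1.92% of all genes tested. Retsat, which saturates retinol, had 55.9, 40.9 and 31.8 TPM in knockout controls against 132, 139 and 147 TPM in floxed controls (log2 fold change -1.73 ± 0.22, adjusted p = 0.00521). Rdh16f2, a member of a family of retinol and steroid dehydrogenases, had 229.9, 185 and 204 TPM in knockout controls against 73.5, 73.5 and 99.4 TPM in floxed controls (1.25 ± 0.16). As in every called gene, the groups did not overlap in either. Rdh5 (log2 fold change 0.78 ± 0.15), a retinol dehydrogenase, rose, and Aldh1a1 (-0.71 ± 0.14), which makes retinoic acid, fell. All but the rise of Rdh16f2 were lost without floxed control 4, Rdh5 also without knockout control 2, and Aldh1a1 also without knockout control 1 or 2 (highest adjusted p 0.223).

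The acute phase list, secreted proteins that inflammation induces in hepatocytes, held 9 rises and 0 falls among 26 tested members. Of all genes tested, 1.83% rose and 1.92% fell. The list had a median log2 fold change of 0.66. Lcn2, a protein that binds bacterial iron carriers, had 229.5, 195 and 562 TPM in knockout controls against 18.6, 20.5 and 33.8 TPM in floxed controls (3.46 ± 0.42, adjusted p = 0.00402). Orm2, an orosomucoid, had 348, 309 and 486 TPM in knockout controls against 63.8, 64.6 and 59.0 TPM in floxed controls (2.58 ± 0.19), and its relative Orm1 had 2823, 2674 and 2806 TPM against 1395, 1456 and 1711 TPM (0.82 ± 0.12). Hp, which encodes the haemoglobin scavenger haptoglobin, had 8388, 6178 and 10091 TPM in knockout controls against 2768, 3012 and 3372 TPM in floxed controls (1.37 ± 0.22). Knockout control 5 was the highest for Lcn2, Orm2 and Hp. The classical serum amyloid genes did not follow: Saa1 had 282.5, 239 and 956 TPM in knockout controls and 269.6, 272 and 806 TPM in floxed controls (adjusted p = 0.914), while Saa3 rose (log2 fold change 1.24 ± 0.15). Hamp, the iron hormone hepcidin, had 4469, 3737 and 5094 TPM in knockout controls and 3333, 3269 and 367 TPM in floxed controls (adjusted p = 0.226). The rises of Saa3, Orm1, Orm2 and Lcn2 held when any 1 control library was left out. Those of Serpina3k (1.01 ± 0.13), Hp, Itih3 (0.91 ± 0.17), Apcs (2.03 ± 0.41) and Hpx (1.01 ± 0.22) were lost without floxed control 4, the last 3 also without knockout control 2, and Hpx also without knockout control 1 (adjusted p up to 0.133). Without knockout controls 1 and 2, 7 of the 9 were called. Among the knockout controls, Lcn2 and the macrophage and neutrophil sums given above were all highest in knockout control 5, and their part in the result was not tested.

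Other secreted liver proteins were raised in part. The counts below stand against 1.83% of all genes tested that rose and 1.92% that fell. Of 33 tested complement and coagulation genes, 3 rose and 0 fell: C6, a component of the membrane attack complex, at 296, 273 and 269 TPM in knockout controls against 89.4, 90.4 and 106 TPM in floxed controls (log2 fold change 1.51 ± 0.12, adjusted p = 4.57e-04), C1s1, a complement protease (0.71 ± 0.12), and F11, a coagulation factor (0.69 ± 0.14). The list had 29 positive signs, but 17 without knockout controls 1 and 2. C1s1 and F11 lost the call without floxed control 4, and F11 also without knockout control 2 (adjusted p up to 0.147). Ttr, which carries thyroid hormone and retinol-binding protein in plasma, had 11712, 9429 and 9269 TPM in knockout controls against 5006, 5188 and 5699.7 TPM in floxed controls (0.90 ± 0.15; adjusted p = 0.0936 without floxed control 4). Among hepatokines, 4 of 19 rose and 1 fell, Gas6, the ligand of the TAM receptors, at 1.07, 0.810 and 0.760 TPM in knockout controls against 5.75, 6.09 and 10.2 TPM in floxed controls (-2.23 ± 0.23). Alas2, the erythroid form of the first heme enzyme, rose, at 183, 159.6 and 158 TPM in knockout controls against 68.4, 65.7 and 82.4 TPM in floxed controls (1.15 ± 0.14), while the other 4 tested members of the erythroid and platelet list had negative signs.

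Genes of the growth hormone axis and genes that differ between the sexes were examined because Mup and many Cyp genes depend on that axis. Of 16 tested axis genes, 2 rose and 1 fell, against 1.83% and 1.92% of all genes tested. Socs2, a feedback inhibitor of growth hormone signalling, had 4.99, 8.30 and 3.67 TPM in knockout controls against 0.660, 0.900 and 0.370 TPM in floxed controls (log2 fold change 2.03 ± 0.28), and Cish, a related inhibitor, had 17.0, 17.7 and 2.60 TPM against 0.730, 0.420 and 0.160 TPM (2.98 ± 0.66). Igfbp2, a binding protein for insulin-like growth factors, fell, at 33.2, 22.1 and 47.2 TPM in knockout controls against 212, 215 and 197 TPM in floxed controls (-2.61 ± 0.28). Igf1 was not called, at 373, 380.0 and 381 TPM in knockout controls and 338, 342 and 353 TPM in floxed controls (adjusted p = 0.603). The call of Socs2 was lost without floxed control 4 (adjusted p = 0.0878) and that of Cish without floxed control 3 or 4 or knockout control 1 or 2 (up to 0.308). Male-biased genes were split, with 3 of 26 rising (C6, Mup21, Cyp7b1) and 3 falling (Cyp4a12b, Mup17, Ugt2b1). Female-biased genes were split as well, with 2 of 13 rising, Cyp17a1 among them, and 2 falling (Cyp2c69, Cyp2c40).

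Pericentral genes, which mark hepatocytes around the central vein, had 4 falls and 0 rises among 17 tested, against 1.92% and 1.83% of all genes tested. The falls were Cyp2c29, Cyp2c37, Rhbg and Glul. None of 17 periportal genes was called. Knockout libraries were all below the floxed ones in 10 pericentral genes and all above in 1. For periportal genes they were all below in 2 and all above in 7. Of all genes tested, 11.1% were all below and 14.2% all above. Glul, the glutamine synthetase, had 55.9, 56.6 and 28.9 TPM in knockout controls against 231, 233 and 137 TPM in floxed controls (log2 fold change -1.96 ± 0.35; adjusted p = 0.0663 without floxed control 4). Rhbg, an ammonia transporter of the same cells, had 1.09, 0.640 and 0.150 TPM in knockout controls against 8.37, 8.57 and 4.64 TPM in floxed controls (-2.21 ± 0.30). Cyp2e1, another pericentral gene, was lower in every knockout library, at 3303, 2865 and 2972 TPM against 5520, 5789 and 4042 TPM in floxed controls, without passing the test (adjusted p = 0.0946). In gluconeogenesis and glycolysis 2 of 24 rose, against 1.83% of all genes tested. Fbp1, a gluconeogenic phosphatase, was 1 of them (0.80 ± 0.13). In amino acid catabolism 1 of 34 fell, against 1.92% of all genes tested: Prodh, which starts proline breakdown (-1.18 ± 0.16). Of these 34 genes, 21 had a positive sign, and the median log2 fold change was 0.14. Knockout libraries were all above the floxed ones in 15 and all below in 2, against 14.2% and 11.1% of all genes tested. The calls of Fbp1 and Prodh were lost without floxed control 4 (adjusted p up to 0.133).

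The 13 mRNAs encoded by the mitochondrial genome were lower together, although only mt-Nd1 passed the test. They made up 7.54%, 9.51% and 9.20% of all TPM in knockout controls, against 12.9%, 12.1% and 13.2% in floxed controls. All 13 had a negative sign, 12 had knockout libraries all below the floxed ones (11.1% of all genes tested did), and the median log2 fold change was -0.62. Without knockout controls 1 and 2 the signs were 12 negative and 1 positive, with a median of -0.46. mt-Nd1, a subunit of complex I, had 5025, 4376 and 4901 TPM in knockout controls against 8443, 8787 and 9159 TPM in floxed controls (-0.90 ± 0.12, adjusted p = 0.00607; 0.0862 without floxed control 4). Respiratory chain subunits encoded in the nucleus did not fall with them, with 0 of 28 called and a median of 0.13. Of these 28, 23 had a positive sign. Knockout libraries were all above the floxed ones in 11, against 14.2% of all genes tested, and all below in 0.

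**Figure D4:**
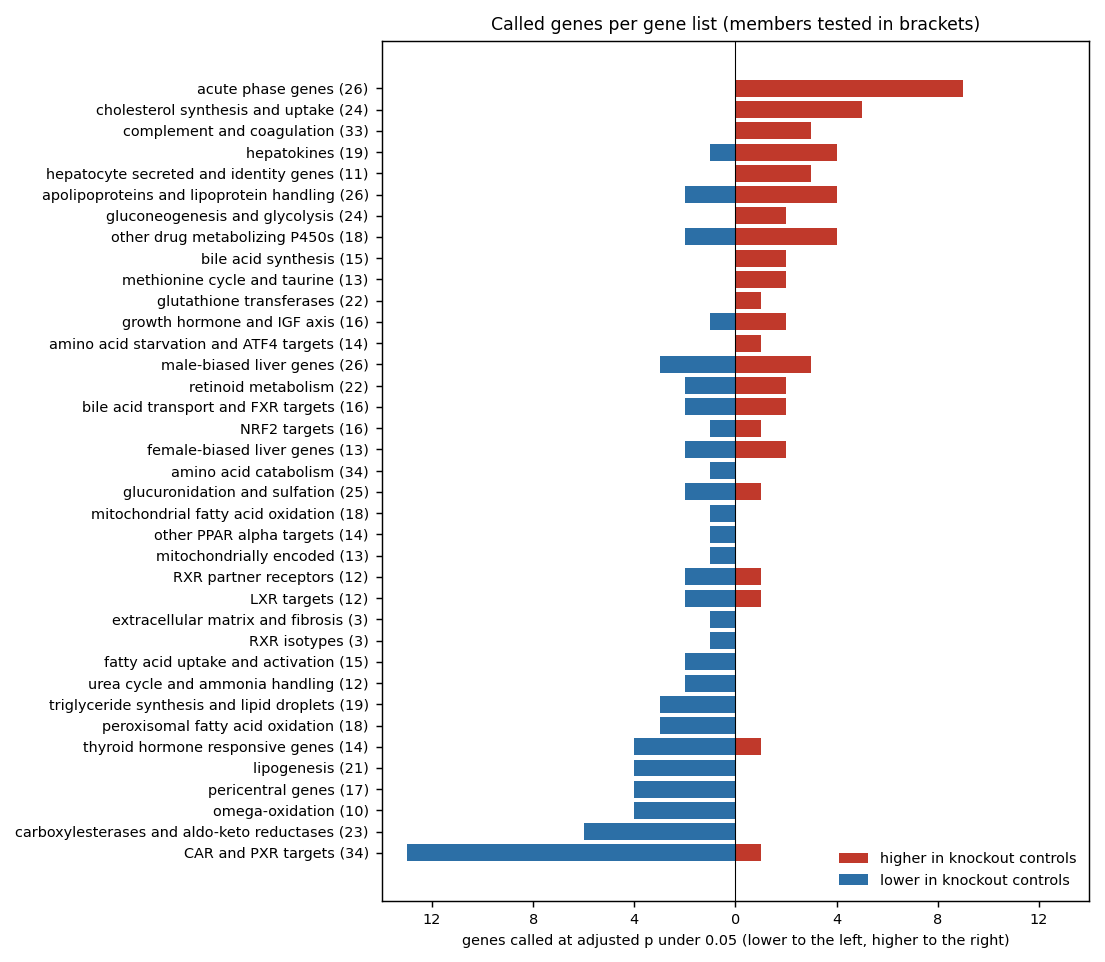
Number of members called lower (blue, to the left) and higher (red, to the right) in knockout controls, for each gene list with at least 1 call, cell type marker lists left out. The number of members tested stands in brackets, and some genes belong to several lists. CAR and PXR targets have the most falls, 13 of 34, and acute phase genes the most rises, 9 of 26.

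The genotype effect was also measured in libraries from mice given bexarotene, where the knockout group entered as n = 1, since its 3 libraries differed by less than the limit of 0.1, and the floxed group as n = 3. The knockout group then has no spread of its own, and the fit assumes that its lone sample varies like the other groups. In that fit 213 genes were called between knockout and floxed with bexarotene (1.93%), 75 higher (0.681%) and 138 lower (1.25%). Of the 202 genes that rose without drug, 165 had the same sign with bexarotene (81.7%) and 40 were called in the same direction. Of the 212 that fell, 193 had the same sign (91.0%) and 72 were called. The median effect of the genes that fell was -1.02 with bexarotene and -1.29 without it, and that of the genes that rose was 0.58 with it and 1.06 without it. Of all genes tested, 55.4% had a positive and 44.6% a negative sign with bexarotene. The comparisons share no library but share 1 estimate of spread, and the genes were chosen by their call without drug. With bexarotene, the evening-phase minus morning-phase clock level was 0.52, 0.42 and 0.43 in knockout libraries. In floxed libraries with bexarotene it was 0.80, 0.76 and 1.49. The genotypes thus differed in clock genes in another way than without drug. The part of the clock genes in the genotype effects and in their difference was not tested.

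The difference between the genotype effects with and without bexarotene was called for 22 genes (0.200%; 0.0998% in each direction) under the same assumption, and 10 of them were also among the 414. No fit left out a bexarotene library. For 6 of the 10 the knockout value was lower than the floxed one without drug and, as a ratio, nearer to it with bexarotene. Cyp2c29 had 1289, 1253 and 1307 TPM in knockout libraries against 2935, 3131 and 2929 TPM in floxed libraries with bexarotene, and the log2 fold change was -1.22 ± 0.17 with bexarotene and -4.83 ± 0.13 without it (difference 3.61 ± 0.21, adjusted p = 0.00122). Thrsp had 347, 331 and 347 TPM in knockout libraries against 1490, 1508 and 1463 TPM in floxed libraries with bexarotene (difference 2.65 ± 0.18). In each genotype this was above the untreated controls of that same genotype. The knockout libraries with bexarotene stayed below the untreated floxed controls, which had 442, 440 and 433 TPM. Cyp2c37 (difference 3.16 ± 0.29), Ces2c (3.11 ± 0.35), Cyp2c50 (2.04 ± 0.21) and Ces1g (1.85 ± 0.25) had differences in the same direction.

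In the other 4 genes the knockout mean was the higher one without drug and the floxed mean the higher one with bexarotene. Slc16a5, a transporter of the monocarboxylate family, had 7.67, 8.60 and 10.6 TPM in knockout controls against 1.83, 2.09 and 2.74 TPM in floxed controls (log2 fold change 1.57 ± 0.19). With bexarotene it had 10.4, 10.5 and 11.8 TPM in knockout libraries against 22.6, 25.7 and 19.5 TPM in floxed libraries (-0.98 ± 0.24, adjusted p = 0.0983; difference -2.55 ± 0.30, adjusted p = 0.0228). Aacs, which activates acetoacetate for lipid synthesis, had 34.2, 31.2 and 28.9 TPM in knockout controls against 4.52, 5.21 and 6.73 TPM in floxed controls (2.27 ± 0.18), and with bexarotene its groups overlapped, at 10.5, 9.18 and 10.3 TPM in knockout libraries and 10.02, 10.2 and 13.1 TPM in floxed libraries (difference -2.39 ± 0.29). Pla2g6, a phospholipase (difference -2.37 ± 0.32), and Alpl, the alkaline phosphatase (-2.32 ± 0.32), followed the same order. The calls of Cyp2c29, Cyp2c37 and Thrsp held when any 1 control library was left out. The other 7 were lost without knockout control 2, and Slc16a5, Pla2g6, Alpl and Ces1g also without floxed control 4, Alpl also without floxed control 3 (adjusted p up to 0.200).

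**Figure D5:**
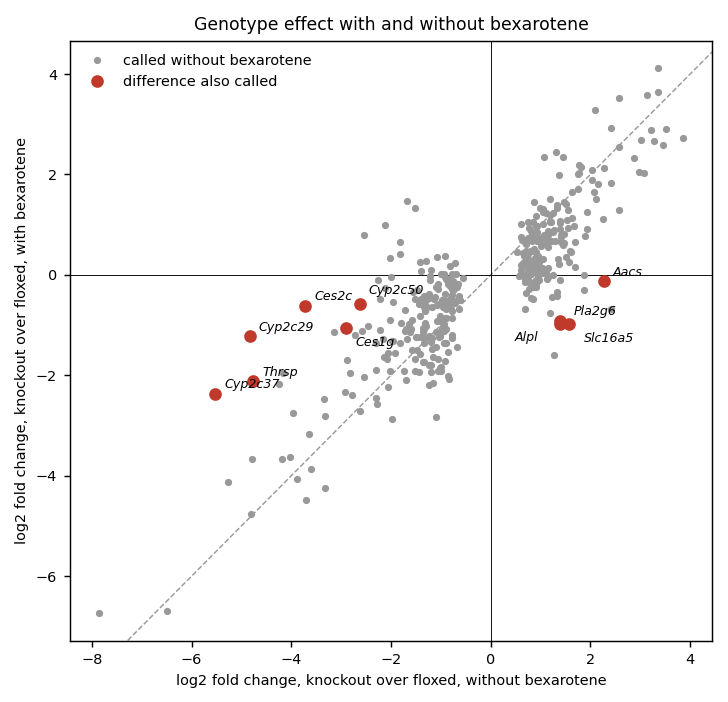
Log2 fold change of knockout over floxed libraries with bexarotene (vertical axis) against the same without bexarotene (horizontal axis) for the 414 genes called without drug. Each point is a gene, the dashed line marks equal effects, and the 10 genes whose difference was called are red and named. Most points lie in the lower left and upper right of the plot, and the named genes lie away from the line, Cyp2c29 by 3.61.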

How the data were processed

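RNA of hepatocytes was sequenced in 12 libraries, 3 per group. Per the labels' protocols, TRIzol was used for extraction and DNase I against genomic DNA, and an Illumina stranded mRNA kit took 1 µg of total RNA per library. The submitters' processing notes name fastp, HISAT2 and StringTie, with no version. The sources used here do not give the genome build or the strand setting. The authors deposited TPM (reads scaled for transcript length and library total) for 26748 gene identifiers, of which 21810 had a symbol. Depth is unknown, and TPM is a share of the library, so a change in abundant mRNAs moves all others. Columns carry other numbers than the sample titles and were mapped to groups only. No value column was left out.

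Libraries of a group that differed by a log2 SD under 0.1 beyond counting noise were averaged, leaving 9 samples. Genes that reached 1 TPM in 3 or more libraries were tested on log2(TPM + 1) with limma 3.58.1 in R 4.3.3 over all 4 groups (eBayes with trend; degrees of freedom were 5 for the residuals and 3.22 for the prior), with Benjamini-Hochberg adjustment over 11018 genes and calls at an adjusted p under 0.05. Fold changes on this scale understate changes of genes near 0 TPM. On simulated data of 11018 genes, 80% of changes of 1 and 97% of changes of 2 on the log2 scale were recovered, with 8 false among 185 calls. The changes were planted only in genes above a set mean level, and the noise was independent with the same spread in all groups. The real groups scattered unequally, so these shares check the method and do not carry over to the calls reported here. Tables and figures were made with Python 3.11.15, pandas 2.3.3 and matplotlib 3.10.9.

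Named were the RXR genes, up to 12 rises and 12 falls of at least 5 TPM with groups that do not overlap, up to 5 called members of each of 57 gene lists (otherwise the 2 most abundant), and up to 6 genes called in both the main contrast and the difference. Other genes were named after their values were seen: Cyp2c38, Cyp2c54, Cyp2c55, Cyp2c67, Cyp2a5, Cyp3a11, Cyp4a12a, Cyp2e1, Ehhadh, Fasn, Srebf1, Ppara, Nr1i3, Nr1h3, Cyp7a1, Cyp8b1, Nr0b2, Abcb11, Hp, Itih3, Apcs, Saa1, Hamp, Igf1, Pla2g6 and Alpl. The comparison, the lists and the limit for averaging were chosen with earlier results of these data known. Some list members that the naming rule picks are not reported here. Alternatives changed the averaging, pseudocount, filter, samples in the fit, scaling and variance model, and left out control libraries.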

Additional observations from a re-analysis of the deposited data

Results flagged for a closer look

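For 10 genes called between knockout and floxed controls, a test of the difference itself called the genotype effects with and without bexarotene different, in a fit where the knockout group with bexarotene counted as 1 sample, assumed to vary like the other groups. The difference, log2 effect with bexarotene minus log2 effect without it, was 3.61 for Cyp2c29, 3.16 for Cyp2c37, 3.11 for Ces2c, 2.65 for Thrsp, 2.04 for Cyp2c50 and 1.85 for Ces1g. It was -2.55 for Slc16a5, -2.39 for Aacs, -2.37 for Pla2g6 and -2.32 for Alpl. No fit left out a bexarotene library.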

How the results depend on the processing

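The 414 calls, 202 higher and 212 lower, and the 22 calls of the difference stayed within 1.5 times under other pseudocounts, a filter of 5 TPM, quantile and median-of-ratios scaling and other variance models, and all main calls that were tested kept their sign in each of the 18 alternatives. Only quantile and median-of-ratios scaling could have changed a sign, since the control libraries of every called gene did not overlap between the groups. With 12 libraries as separate samples there were 1302 calls (739 higher, 563 lower) and 651 for the difference. With no filter on low TPM there were 231 (98 and 133) and 689. With only the 2 control groups in the fit there were 158 (60 and 98), 151 of them shared with the 414. Without floxed controls 1 and 3 there were 100 (36 and 64) and 13. Leaving out 1 control library gave 101 to 761 calls (44 to 432 higher, 57 to 329 lower) and 8 to 210 for the difference. The log2 fold change of Rxra lay between -1.48 and -1.34 in those fits. The causes were not tested, beyond the number of samples and genes that each alternative changes. Genes without a call that changed sign were Rxrb (-0.222 to 0.125 leaving out 1 control library, above 0 without floxed control 3, 0.00237, knockout control 2, 0.00786, or knockout control 5; 0.062 without floxed controls 1 and 3), Cyp7a1 (-0.318 to 0.506 leaving out 1, below 0 without floxed control 4 or knockout control 2, -0.281; -0.367 without knockout controls 1 and 2), Fasn (-0.348 to 0.163 leaving out 1, above 0 without floxed control 4), Cyp8b1 (-0.0255 to 0.191 leaving out 1, below 0 without knockout control 1) and Ehhadh (-0.0913 to 0.0145 leaving out 1, above 0 without knockout control 5; 0.0622 without floxed controls 1 and 3). No paired analysis was possible because the columns do not carry the replicate numbers of the sample titles and the control groups share only the column number 1.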

Other observations

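The knockout controls were not alike for some abundant hepatocyte genes, and the genes named here were chosen after their values were seen. Of 7056 genes with at least 5 TPM in some control library, 11 had knockout controls 1 and 2 over 4-fold below every floxed control on the TPM + 1 scale while knockout control 5 lay within 2-fold of the floxed range, and 7 had them over 4-fold above. Elovl3, an elongase of very long fatty acids, had 2.94, 1.86 and 368 TPM in knockout controls and 416, 462 and 523 TPM in floxed controls. Cdkn1a, the cell cycle inhibitor p21, had 3.08, 1.99 and 71.9 TPM in knockout controls and 74.0, 73.5 and 72.6 TPM in floxed controls. Alas1, the first enzyme of heme synthesis in liver, had 2271, 2196 and 319 TPM in knockout controls and 441, 422 and 483 TPM in floxed controls. None of these 3 was called. Knockout control 5 alone was over 4-fold above the floxed controls in 16 genes and over 4-fold below in 7. Igfbp1, a binding protein for insulin-like growth factors, had 51.6, 64.7 and 939 TPM in knockout controls and 59.7, 62.0 and 142 TPM in floxed controls, and Mt2, a metallothionein, had 218, 192 and 3421 TPM in knockout controls and 236, 235 and 544 TPM in floxed controls.

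Floxed control 4 stood apart from floxed controls 1 and 3 in Cyp2a4, also chosen after its values were seen. Cyp2a4, a steroid hydroxylase with close paralogs, had 0.04, 0 and 0 TPM in knockout controls and 0.87, 1.06 and 88.4 TPM in floxed controls.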
